A study of Oryzias latipes with 12 samples.

Results

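The comparison described here sets 3 brain samples of pd1 knockout medaka (Oryzias latipes) taken under long days against 3 brain samples of pd1 knockout medaka taken under short days. The members were chosen by sample title alone: long-day knockout libraries 13, 14 and 16 and short-day knockout libraries 1, 3 and 4, which are 6 of the 12 samples in the study. Each sample held the ventral telencephalon, the hypothalamus and the pituitary, and each was taken at hour 12 of the day, before or 12 days after the fish were moved from short to long days. The knocked-out gene is called pd1 in the sample labels and phod1 in the study's title, and both groups compared here carry the knockout, while the other 6 samples are wild type, 3 per day length. The labels do not give sex, age, the nature of the mutation, or the number of fish in a sample, and they do not say that the samples came from separate fish, so p-values measure only the spread between samples. The short-day samples were taken before the move, so day length, elapsed time and the move itself cannot be told apart.

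Medaka breed in the long days of spring and summer. In fish, as in other vertebrates, hypothalamic neurons drive the gonadotroph cells of the pituitary to make follicle-stimulating hormone and luteinizing hormone, which share an alpha subunit encoded by cga and differ in the beta subunits encoded by fshb and lhb. Radial glia of the fish brain make much aromatase, encoded by cyp19b, which turns androgens into oestrogens and is itself raised by oestrogens. Cells also adjust growth to supply: the kinase complex mTORC1 promotes protein synthesis and holds back autophagy, the breakdown of cell contents in lysosomes, and its inhibitors do the reverse.

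Levels were given as TPM, a length-scaled share of all transcripts in a library, for 26663 genes. Of these, 18218 with at least 1 TPM in at least 3 of the 12 libraries were tested with limma on log2(TPM + 1), and changes below are long minus short days on that scale, with the standard error (SE) and the Benjamini-Hochberg adjusted p over all tested genes. A gene was called at an adjusted p under 0.05, and only called genes are said to rise or fall. Between 17333 and 17478 genes had at least 1 TPM in each knockout library. Pearson correlations across genes of log2(TPM + 1) were 0.9723 to 0.9794 within the knockout groups and 0.9678 to 0.9722 between them. Along the first principal component, 30.9% of the variance of the 6 libraries, lay the 3 short-day libraries at -27.7 to -18.8 and the 3 long-day libraries at 13.1 to 27.9. The knockout itself could not be checked, because neither pd1 nor phod1 matched a gene symbol. Depth is unknown, since TPM carries no counts of reads. In whole tissue, fewer cells of a type and less RNA per cell cannot be told apart.

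Long days were accompanied by higher transcripts of the pituitary hormone subunit genes cga, lhb and fshb and of brain aromatase. These genes were called higher under long days in wild type as well. Several genes of autophagy and of the mTORC1 pathway were also higher, though none of those calls held in a fit to the knockout libraries alone. Transcripts of several genes for translation and of single metabolic genes such as fech and odc1 were lower. In all, 321 of the 18218 tested genes were called, which is 1.76%. Of these, 202 rose (1.11% of tested genes) and 119 fell (0.653%). The median change was 0.56 among the genes that rose and -0.53 among those that fell, and 57 changed by at least 1, 36 upward and 21 downward. A symbol other than a LOC number was available for 180 called genes. All 321 had no overlap between the 3 short-day and the 3 long-day libraries, a pattern that 3969 tested genes showed (21.8%). The share of calls that were higher was 62.9%, and it was 51.3% under median-ratio scaling of the libraries, which gave 192 higher and 182 lower genes and kept 290 of the 321 calls. That scaling moved the median change of all tested genes from 0.029 to 0.00075.

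**Figure D1:**
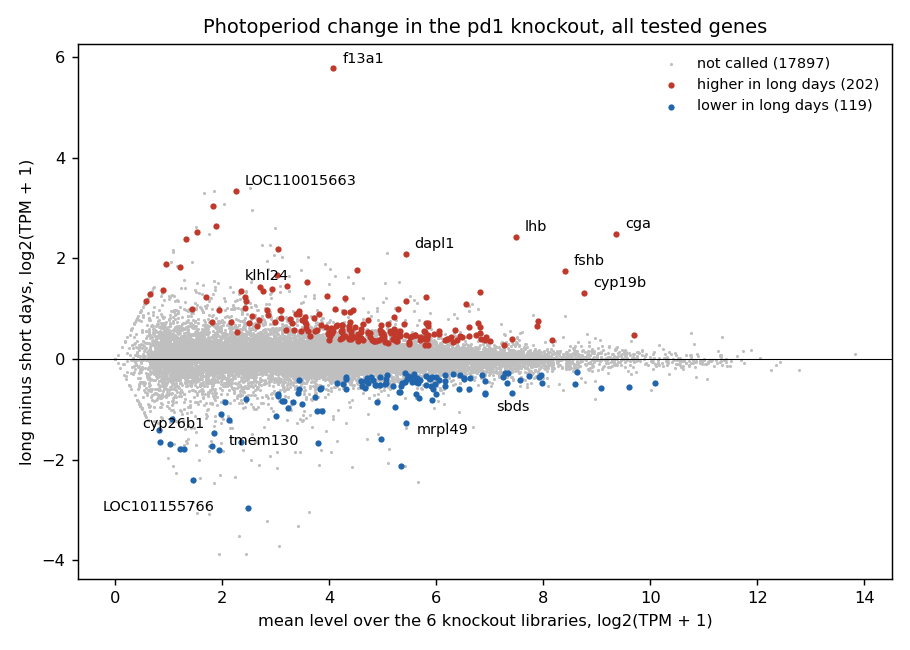
Each point is 1 of the 18218 tested genes, with its mean level over the 6 knockout libraries as log2(TPM + 1) on the horizontal axis and its change from short to long days on the same scale on the vertical axis. The 202 genes that rose are red and the 119 that fell are blue, with f13a1 farthest from 0 at 5.78 among the called genes.

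The number of calls depended on single libraries and on the fit. Without long-day library 13 there were 86 calls, without long-day library 14 there were 81, and without long-day library 16 there were 216. Without short-day library 1, 3 or 4 there were 191, 122 and 111 calls. A fit to the 6 knockout libraries alone, which estimates the spread from these 2 groups, gave 61 calls, and 50 of the 321 were among them. Of the 94 called genes picked by the naming rule given below, 72 were lost in that fit. Leaving out the knockout libraries one at a time, 56 genes were called every time. Under every alternative tried 34 genes stayed called, 20 higher and 14 lower, and 14 of them have a symbol: f13a1, cga, lhb, cyp19b, asic4, gpr137c, pcmtd1, paip2, fbxo25 and prkra among the risers, and sbds, fech, mrpl49 and c23h12orf45 among the fallers.

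The pituitary hormone subunit genes cga, lhb and fshb rose under long days. The shared alpha subunit gene cga stood at 387, 202 and 266 TPM in short-day libraries 1, 3 and 4 and at 1991, 1130.4 and 1648 TPM in long-day libraries 13, 14 and 16. It rose by 2.49 (SE 0.26, adjusted p = 0.00171), and the lowest long-day library lay well above the highest short-day library. The luteinizing hormone subunit gene lhb stood at 85.9, 82.1 and 62.5 TPM under short days and at 581.6, 255 and 479 TPM under long days. It rose by 2.43 (SE 0.26, adjusted p = 0.00171), with long-day library 14 lowest of the long-day libraries for both genes. The follicle-stimulating hormone subunit gene fshb stood at 206, 163 and 183 TPM against 602, 635 and 625 TPM, and rose by 1.76 (SE 0.38, adjusted p = 0.0464). The short-day wild-type libraries, which share the estimate of the spread, held 122, 115 and 31.4 TPM of fshb. Its call in the knockout was lost whichever of the 6 knockout libraries was left out, with an adjusted p of up to 0.144. With the 2 knockout groups fitted alone its adjusted p was 0.00311.

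Other pituitary genes did not show that rise. Of 17 tested pituitary markers 3 rose, which were cga, lhb and fshb, and none fell, where 1.11% of all tested genes rose. Changes lay above 0 for 7 (41.2%, against 55.8% of all tested genes) and below for 10. The median was -0.051 against 0.029 over all tested genes. The summed level of the 18 listed markers ran from 3757 to 11045 TPM under short days and from 6163 to 10815 TPM under long days, so the groups overlapped. The listed marker with the highest level in each knockout library was pomc, for the precursor of adrenocorticotropic hormone, which stood at 8537, 1602 and 2425 TPM under short days and at 5991, 2576 and 2927 TPM under long days. Its change was 0.15 (SE 0.57, adjusted p = 0.931).

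Upstream of the gonadotrophs no called change was found among the genes looked up. The gene gnrh1, for the main gonadotropin-releasing hormone, was found at 31.9, 31.2 and 35.9 TPM under short days and at 38.1, 33.3 and 39.3 TPM under long days, with a change of 0.16 (SE 0.17, adjusted p = 0.713). Changes were -0.01 (SE 0.33) for gnrh3, -0.27 (SE 0.25) for the neurokinin gene tac3, 0.10 (SE 0.15) for the oestrogen receptor gene esr1 and 0.32 (SE 0.20) for the progesterone receptor gene pgr, none of them called. The thyroid hormone activating enzyme gene dio2 stood at 5.41, 1.64 and 8.39 TPM against 7.67, 8.3 and 8.03 TPM (0.73, SE 0.40, adjusted p = 0.401). A p that misses the threshold does not show that these genes were alike under the 2 day lengths.

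Brain aromatase and the coagulation factor gene f13a1 rose as well. Levels of cyp19b were 323, 225 and 285 TPM under short days and 680.0, 632 and 754 TPM under long days, a rise of 1.32 (SE 0.17, adjusted p = 0.00419). The transglutaminase gene f13a1 stood at 2.98, 0.17 and 1.52 TPM in the short-day libraries and at 116, 152 and 108 TPM in the long-day libraries, and rose by 5.78 (SE 0.44, adjusted p = 0.000370). In wild type f13a1 rose too, by 3.11 (SE 0.44, adjusted p = 0.0169). The knockout change minus the wild-type change was 2.67 and was not called (adjusted p = 0.298). Of 11 tested radial glia and astroglia markers, cyp19b and s100b rose and none fell, where 1.11% of all tested genes rose. Changes lay above 0 for 5 (45.5%, against 55.8% of all tested genes), with a median of -0.034 against 0.029. The calcium-binding protein gene s100b stood at 642, 723 and 743 TPM against 884, 909 and 1132 TPM. The summed level of the 13 listed glial markers ran from 7792 to 8538 TPM under short days and from 8204 to 8864 TPM under long days, so those ranges overlapped.

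**Figure D2:**
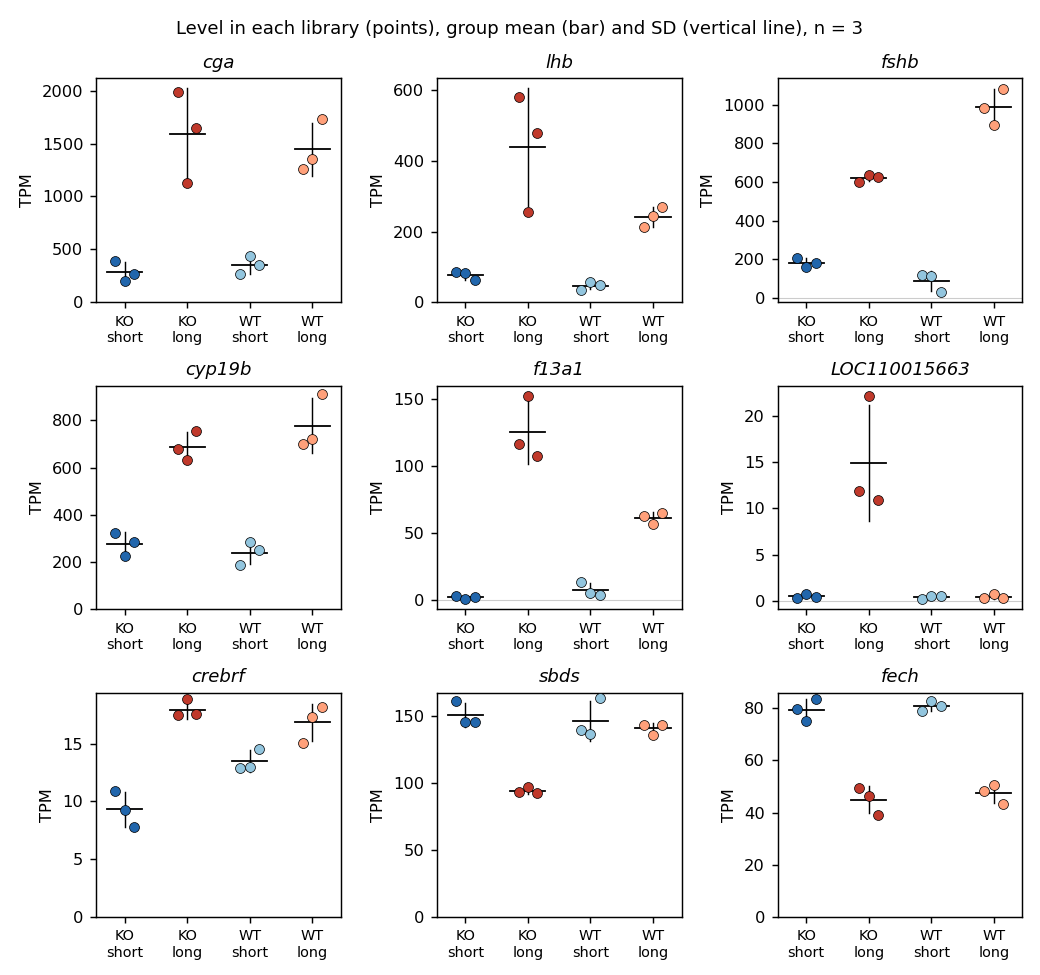
TPM in each library (points), with the group mean (bar) and SD (vertical line) for 3 libraries per group, for 9 genes in the knockout (KO) and wild type (WT) under short and long days. The knockout groups are apart for all 9 genes, and LOC110015663 is above 10 TPM only in the 3 long-day knockout libraries.

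A second set of risers start autophagy or act in the lysosome. The lists used here for autophagy, mTORC1 and lysosome genes were assembled after the called genes had been seen, so their counts describe these libraries and carry no test. Of 42 tested autophagy genes 8 rose and none fell, where 1.11% of all tested genes rose. Of the 42 changes 36 lay above 0 (85.7%, against 55.8% of all tested genes). The median was 0.19 against 0.029 over all tested genes, and 0.17 over the 34 members that were not called. The median stayed at 0.16 under median-ratio scaling.

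The kinase gene ulk1, whose product starts autophagy, stood at 42.9, 40.02 and 38.1 TPM under short days and at 55.6, 58.5 and 54.7 TPM under long days. It rose by 0.47 (SE 0.07, adjusted p = 0.0126). The related kinase gene ulk3 stood at 16.9, 16.3 and 13.4 TPM against 25.6, 26.1 and 22.8 TPM, and rose by 0.65 (SE 0.10, adjusted p = 0.00963). Both genes had every long-day library above every short-day library. Levels of pik3r4, a regulatory subunit of the lipid kinase that marks new autophagosomes, were 23.6, 28.4 and 25.5 TPM against 35.1, 37.5 and 38.3 TPM (0.50, SE 0.08, adjusted p = 0.00963). The autophagy receptor gene nbr1 stood at 68.3, 66.0 and 61.5 TPM against 89.8, 91.7 and 85.6 TPM (0.44, SE 0.07, adjusted p = 0.0105). The other 4 that rose were wdr41, tp53inp1, atg101 and atg2a, with changes of 0.55, 0.66, 0.40 and 0.39, the last 2 named after their values were seen. The members that were not called included atg3, at 105, 113 and 107 TPM against 114.4, 107 and 106 TPM.

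The mTORC1 list, which holds parts of the complex, its activators, its inhibitors and its targets, leaned upward as a whole. Of 36 tested genes 6 rose and none fell, ulk1 among the risers, and 32 changes lay above 0 (88.9%, against 55.8% of all tested genes). The median was 0.21 against 0.029. The inhibitor gene deptor stood at 49.6, 49.5 and 49.2 TPM under short days and at 60.5, 59.3 and 61.1 TPM under long days, with a change of 0.28 (SE 0.06, adjusted p = 0.0357). The stress-induced inhibitor gene ddit4l, much less abundant, stood at 3.69, 2.6 and 3.92 TPM against 8.55, 6.05 and 6.43 TPM (0.86, SE 0.19, adjusted p = 0.0473). The gene lamtor2, whose product holds mTORC1 at the lysosome, rose by 0.64, and akt1s1, an inhibitor within the complex, by 0.29. The gene maf1, a repressor of RNA polymerase III that mTORC1 keeps inactive, rose by 0.36. The kinase gene mtor itself stood at 33.5, 33.5 and 31.3 TPM against 52.6, 39.2 and 39.4 TPM and was not called.

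Lysosomal genes leaned the same way. Of 56 tested, 4 rose and none fell, and 45 changes lay above 0 (80.4%, against 55.8%), with a median of 0.17 against 0.029. The risers were man2b1 (0.51), a mannosidase gene, hexdc (0.44), a hexosaminidase gene whose product is not firmly placed in the lysosome, aga (0.43), which cleaves the link between sugar and asparagine, and sidt2 (0.38), a lysosomal membrane protein gene. Levels of man2b1 were 13.2, 11.9 and 13.7 TPM under short days and 19.8, 19.7 and 17.4 TPM under long days. None of the called autophagy, mTORC1 or lysosome genes was called with the 2 knockout groups fitted alone, where their adjusted p ran from 0.0521 to 0.149. When the knockout libraries were left out singly, wdr41 and pik3r4 alone among them kept their calls every time.

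Other genes that rose have varied roles, and crebrf, ccng2 and fto among them were singled out after their values were seen. Levels of crebrf, a regulator linked to energy storage in humans, were 10.9, 9.24 and 7.8 TPM under short days and 17.5, 18.9 and 17.6 TPM under long days. It rose by 0.89 (SE 0.12, adjusted p = 0.00581). The gene ccng2, an atypical cyclin that slows the cell cycle, stood at 26.0, 23.7 and 23.6 TPM against 40.2, 37.5 and 33.2 TPM (0.57, SE 0.10, adjusted p = 0.0218). The gene txnip, an inhibitor of thioredoxin and of glucose uptake, stood at 44.3, 35.5 and 55.7 TPM against 74.2, 73.8 and 64.4 TPM (0.66, SE 0.13, adjusted p = 0.0378). The RNA demethylase gene fto rose by 0.52 (SE 0.09, adjusted p = 0.0165). With the 2 knockout groups fitted alone crebrf, ccng2, txnip and fto were not called (adjusted p = 0.0528, 0.0623, 0.136 and 0.0623). The yippee family, small zinc-binding proteins, was also picked out after the calls were seen. All 5 tested members had changes above 0, and ypelc and ypeld rose by 0.52 and 0.44. Neither call held through leaving out each knockout library in turn, or with the 2 knockout groups fitted alone.

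**Figure D3:**
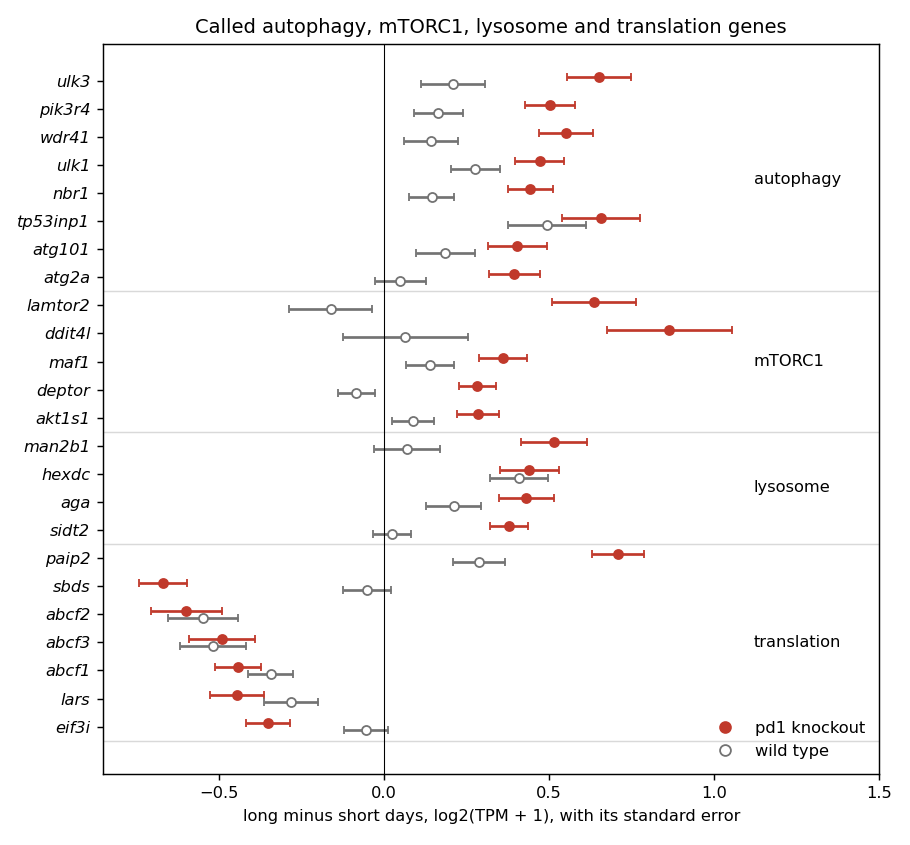
Change from short to long days on the log2(TPM + 1) scale, with its standard error, for called autophagy, mTORC1, lysosome and translation genes in the knockout (red) and wild type (open grey). The autophagy, mTORC1 and lysosome genes lie between 0.28 and 0.86 in the knockout, and the translation genes other than paip2 lie between -0.67 and -0.35.

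Several genes of protein synthesis fell. Of 73 tested translation factors and aminoacyl-tRNA synthetases, also listed after the calls were seen, 6 fell and 1 rose. Over all tested genes 0.653% fell and 1.11% rose. Changes lay below 0 for 43 members and above 0 for 41.1%, against 55.8% of all tested genes. The median was -0.028 against 0.029. Of the 7 calls, 2 held under every alternative, those of sbds and paip2. The gene sbds, needed in yeast and mammals to finish the large ribosomal subunit, stood at 161, 145 and 145 TPM under short days and at 93.4, 96.8 and 92.4 TPM under long days. It fell by 0.67 (SE 0.07, adjusted p = 0.00186) and stayed called under every alternative. The 3 ABCF genes, which encode ATP-binding proteins of translation, all fell. Levels of abcf2 were 105, 117 and 140 TPM against 85.3, 71.1 and 80.9 TPM, and those of abcf1 were 78.8, 81.7 and 86.3 TPM against 62.1, 56.7 and 62.2 TPM. Changes were -0.60 for abcf2, -0.49 for abcf3 and -0.44 for abcf1. The initiation factor gene eif3i fell by 0.35 and the leucyl-tRNA synthetase gene lars by 0.44. The one riser was paip2, which in mammals restrains translation by binding the poly(A)-binding protein. It stood at 84.9, 93.0 and 78.3 TPM under short days and at 142, 146 and 132 TPM under long days, and rose by 0.71 (SE 0.08, adjusted p = 0.00186).

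Ribosomal protein genes did not pass singly. For the lists below, the shares over all tested genes were 1.76% called and 55.8% of changes above 0, with a median of 0.029. Of 70 tested cytosolic ribosomal protein genes none was called or reached an unadjusted p under 0.05, although 58 changes lay below 0. Their median was -0.051 in the knockout and 0.13 in wild type. Of 96 ribosome biogenesis genes the RNA exosome gene exosc1 and the helicase gene ddx21 rose, by 0.83 and 0.41, and none fell, with a median of -0.049. Of 59 spliceosome genes none was called, and 44 changes lay below 0. Of 43 proteasome genes psmd6 fell by 0.31 and psme2, part of the activator cap induced in immune responses, rose by 0.53, with 33 changes below 0 and a median of -0.12.

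Metabolic fallers included the first and the last enzyme of haem synthesis. The gene fech, for the enzyme that inserts iron into the ring, stood at 79.6, 75.1 and 83.6 TPM under short days and at 49.3, 46.4 and 39.2 TPM under long days, and fell by 0.81 (SE 0.09, adjusted p = 0.00171). The gene alas1, for the first enzyme of the pathway, stood at 95.3, 96.1 and 97.2 TPM against 77.7, 70.3 and 84.4 TPM (-0.31, SE 0.07, adjusted p = 0.0482). The transporter gene flvcr1 fell by 0.47, while uros, for a middle step, went the other way and rose by 0.64. Of 26 tested haem and iron genes these 4 were called, with 15 changes below 0 and a median of -0.040. With the knockout groups fitted alone fech kept its call. The calls of alas1, flvcr1 and uros were lost in that fit (adjusted p = 0.138, 0.0623 and 0.0825). Nor did the calls of alas1, flvcr1 and uros hold through leaving out each knockout library in turn.

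The polyamine and cholesterol lists held 1 call each, among 18 and 24 tested genes. The fatty acid and mitochondrial biogenesis lists held 3 each, among 36 and 31. Over all tested genes 1.76% were called, 55.8% of changes lay above 0 and the median was 0.029. The gene odc1, for the rate-limiting enzyme of polyamine synthesis, stood at 71.7, 59.6 and 65.4 TPM under short days and at 35.3, 35.2 and 43.9 TPM under long days, and fell by 0.77 (SE 0.12, adjusted p = 0.00963). The fatty acid activating enzyme genes acsl4 and acsbg2 fell by 0.47 and 0.50, in a list of 36 tested fatty acid and glycerolipid genes with 18 changes on each side of 0. The cholesterol list had 17 of 24 changes below 0 and a median of -0.23, with dhcr7, for the last step, the 1 call, at -0.53. The mitochondrial import channel gene tomm40 fell by 0.53 and the coactivator gene pprc1 by 0.84, while gabpa, a transcription factor gene of mitochondrial biogenesis, rose by 0.35. The glycolytic regulator gene pfkfb3 fell by 0.85 and the vascular growth factor gene vegfa by 0.59. Levels of vegfa were 23.4, 22.4 and 24.5 TPM against 14.5, 14.4 and 16.9 TPM. With the 2 knockout groups fitted alone the calls of odc1, acsl4, acsbg2, dhcr7, pfkfb3 and vegfa were lost.

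Cell cycle genes leaned upward. Of 68 tested, 55 changes lay above 0 (80.9%, against 55.8% of all tested genes) and the median was 0.21 against 0.029. The 3 that rose were mcm7, cdk1 and tpx2, by 0.67, 0.57 and 0.74, where 1.11% of all tested genes rose. The replication helicase gene mcm7 stood at 14.1, 12.9 and 12.1 TPM against 21.9, 22.96 and 19.2 TPM. The cyclin gene ccnd1 went the other way, from 37.0, 36.5 and 35.9 TPM to 29.8, 28.2 and 29.6 TPM, and fell by 0.31 (SE 0.06, adjusted p = 0.0375). In wild type the median of the same list was 0.19.

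Ubiquitin adaptor and protease genes held 6 calls among 190 tested, all of them upward, where 1.11% of all tested genes rose. Of the 190 changes 128 lay above 0 (67.4%, against 55.8% of all tested genes), with a median of 0.061 against 0.029. They include klhl24, fbxo25, rnf141, fbxo21 and rnf13. With the 2 knockout groups fitted alone, fbxo25 was the 1 of these 6 genes that kept its call. Levels of klhl24, a kelch adaptor gene, were 3.23, 3.23 and 3.28 TPM under short days and 12.2, 11.5 and 6.81 TPM under long days. The clock gene per1 stood at 25.9, 29.4 and 23.5 TPM against 34.8, 34.8 and 32.0 TPM (0.36, SE 0.10, adjusted p = 0.112), and per2 changed by -0.18 (SE 0.13, adjusted p = 0.554).

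Neuronal lists held few calls, where 1.76% of all tested genes were called and 55.8% of all changes lay above 0. Of 21 immediate early genes none was called, with 17 changes below 0 and a median of -0.12, and of 16 genes of catecholamine and serotonin neurons none was called, with 13 below 0 and a median of -0.18. Of 26 neuropeptide genes none was called and 13 changes lay on each side of 0. The acid-sensing channel gene asic4 was the 1 call among 68 channel genes. It stood at 27.96, 25.9 and 25.4 TPM under short days and at 45.8, 61.9 and 55.1 TPM under long days, and rose by 1.00 (SE 0.11, adjusted p = 0.00186). Like gpr143, it lies on chromosome 21, where called genes were more frequent. The gene stxbp5l, a regulator of vesicle release, was the 1 call among 59 synapse genes and rose by 0.49.

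**Figure D4:**
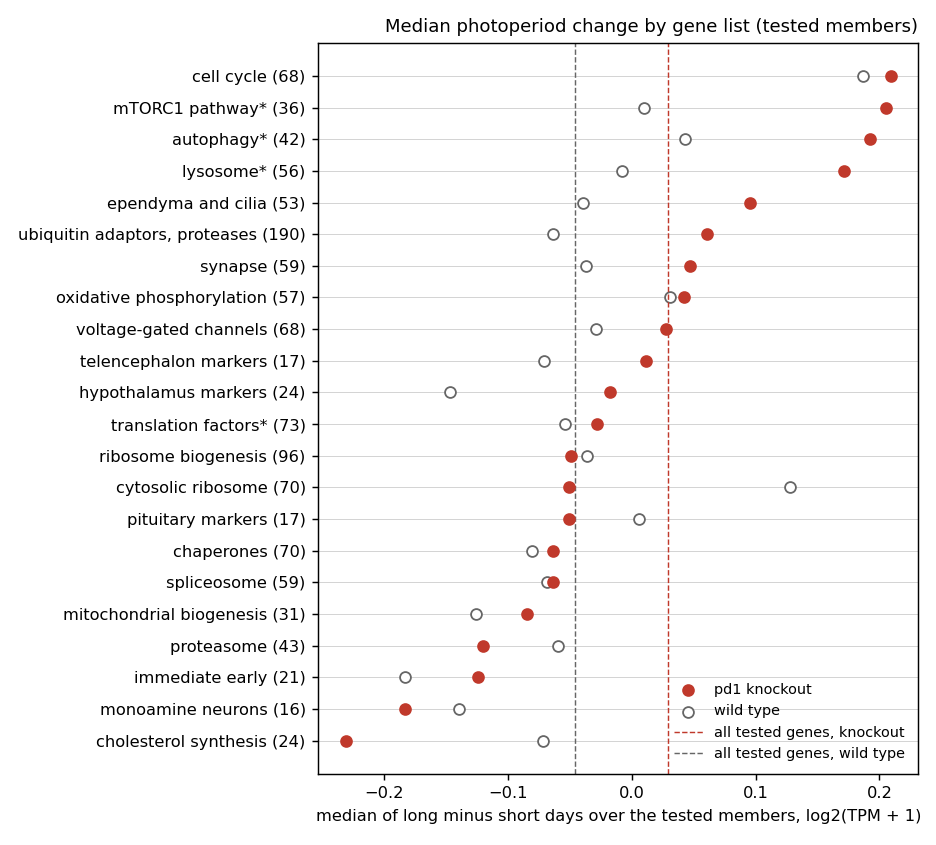
Median change from short to long days over the tested members of 22 gene lists, in the knockout (red) and wild type (open), on the log2(TPM + 1) scale. Dashed lines give the medians over all tested genes, 0.029 in the knockout and -0.046 in wild type. Lists with an asterisk were assembled after the calls were seen.

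Other large changes belonged to genes of varied roles, some of them members of further lists. The glycolipid transfer protein gene gltp stood at 1.09, 1.3 and 0.95 TPM under short days and at 4.56, 3.08 and 4.45 TPM under long days, and bbox1, for the last enzyme of carnitine synthesis, at 5.11, 5.54 and 4.64 TPM against 13.6, 12.8 and 7.58 TPM. They rose by 1.24 (SE 0.20, adjusted p = 0.0126) and 0.98 (SE 0.18, adjusted p = 0.0283), and the long-day libraries of each lay above all of its short-day libraries. In wild type gltp rose too, by 1.19 (adjusted p = 0.0441). It and sptlc3 (1.25) were the 2 calls among 37 tested sphingolipid genes, where 1.11% of all tested genes rose. With the 2 knockout groups fitted alone gltp, sptlc3 and bbox1 were not called. The gene gpr137c, for a membrane protein with the fold of a G protein-coupled receptor, stood at 11.8, 11.4 and 10.3 TPM against 23.8, 21 and 24.7 TPM (0.99, SE 0.12, adjusted p = 0.00270). On the falling side, the mitochondrial ribosomal protein gene mrpl49 stood at 69.4, 79.2 and 52.4 TPM under short days and at 22.9, 30.1 and 27.9 TPM under long days (-1.27, SE 0.19, adjusted p = 0.0101). It was the 1 call among 75 mitochondrial ribosomal protein genes, of which 40 changes lay above 0 (53.3%, against 55.8% of all tested genes). The gene cyp26b1, for an enzyme that breaks down retinoic acid, stood at 7.77, 4.76 and 4.91 TPM against 0.97, 2.32 and 2.6 TPM and fell by 1.22 (SE 0.24, adjusted p = 0.0357). Its call was lost with the 2 knockout groups fitted alone (adjusted p = 0.132). It did not hold through leaving out each knockout library in turn either (adjusted p of up to 0.0914).

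Among genes with only a LOC number, the largest fall was that of LOC101155766, from 15.2, 11.6 and 17.1 TPM under short days to 0.67, 0.81 and 1.59 TPM under long days (-2.96, SE 0.45, adjusted p = 0.0102). The level of LOC101156361 went from 0.88, 0 and 0 TPM to 12.4, 7.19 and 8.44 TPM (3.04, SE 0.29, adjusted p = 0.00147). The reverse was seen for LOC101170847, at 7.19, 4.91 and 4.11 TPM against 0, 0 and 0.64 TPM (-2.41, SE 0.24, adjusted p = 0.00171). These 3 stayed called under every alternative. In all, 5 genes were listed at 0 in every short-day knockout library and at 1 TPM or more in every long-day one, and 3 the other way round, among them s100p at 2.12, 3.76 and 1.1 TPM under short days. Not all of these genes were called, with adjusted p of up to 0.212. The low level of s100p passed the filter only through the short-day knockout libraries, since it was at 0.77 TPM or less in all others.

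Markers of regions and of other cell types were looked at for their movement with day length. The summed level of 17 telencephalon markers ran from 1387 to 1518 TPM under short days and from 1441 to 1482 TPM under long days, and that of 24 hypothalamus markers from 1524 to 1665 TPM and from 1555 to 1591 TPM, with none called. The summed level of 65 cilium and ependyma genes did not overlap between groups, at 749 to 831 TPM under short days and 855 to 904 TPM under long days. Taken singly, 21.8% of all tested genes showed no overlap. Of the 53 tested members of this list 37 changes lay above 0 (69.8%, against 55.8% of all tested genes) and none was called. The part of this list in the other results was not tested. The summed level of 15 photoreceptor and opsin genes ran from 71.3 to 217 TPM under short days and from 64.2 to 68.2 TPM under long days. Short-day library 3 held the highest values among the knockout libraries of the phototransduction gene pde6g, at 75.2 TPM against 8.7 TPM or less in the others, and of rpe65, a gene of the pigment epithelium, at 24.3 TPM against 5.93 TPM or less, while the rod opsin gene rho was at 0.09 TPM. None of the 9 tested members of that list was called. Among 12 tested pigment cell markers gpr143 rose from 2.94, 1.94 and 3.14 TPM to 7.34, 7.7 and 6.3 TPM, while the melanin enzyme gene tyr stood between 0.73 and 1.79 TPM in all 6 libraries.

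Wild-type fish under the same day lengths gave the reference for the knockout response. The 2 comparisons share no library, but they share the estimate of each gene's spread, which comes from 1 fit to all 12 libraries. In wild type 35 genes were called (0.192% of tested genes), and 20 of them were also called in the knockout, 10 higher in both and 10 lower in both. Those 20 are 57.1% of the wild-type calls and 6.23% of the knockout calls. A gene with a small shared spread is more easily called in both, so these shares are only a description. Among the 202 genes that rose in the knockout 161 had a wild-type change above 0 (79.7%, against 38.8% of all tested genes). Among the 119 that fell 110 had a wild-type change below 0 (92.4%, against 61.2%). Their median wild-type changes were 0.14 and -0.25, smaller than the medians of 0.56 and -0.53 by which they had been picked in the knockout. Across all tested genes, which are not independent replicates, the Pearson correlation of the changes in the 2 genotypes was 0.179.

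The test of the difference itself, the knockout change minus the wild-type change, called 1 gene of 18218 (0.00549%), and 1444 reached an unadjusted p under 0.05. That gene was LOC110015663, which has no symbol in the reference. It stood at 0.35, 0.78 and 0.39 TPM in the short-day knockout libraries and at 11.8, 22.2 and 10.9 TPM in the long-day knockout libraries. In wild type it stood at 0.16, 0.49 and 0.52 TPM under short days and at 0.29, 0.71 and 0.34 TPM under long days, so the 3 long-day knockout libraries were apart from all the others. Its difference of changes was 3.29 (adjusted p = 0.0330). It reached 1 TPM only in the 3 long-day knockout libraries, so it was tested only because it was high in that group.

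For the other genes named, no difference between genotypes was called, and a call in the knockout that was missing in wild type does not show that they differed. The gene sbds stood at 139, 136 and 164 TPM under short days and 143, 136 and 143 TPM under long days in wild type, and its difference of changes was -0.62 (adjusted p = 0.130). For fech the wild-type change was -0.76 and the difference -0.05 (adjusted p = 0.941). For fshb the wild-type change was 3.67, larger than the 1.76 of the knockout, with a difference of -1.91 (adjusted p = 0.413). For lamtor2 the wild-type change was -0.16 and the difference 0.80 (adjusted p = 0.263). The median wild-type change of the autophagy list was 0.043, of the mTORC1 list 0.010 and of the lysosome list -0.0082.

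Shares of called genes differed between chromosomes, as placed by the reference assembly ASM223467v1, which may not be the build the authors used. On chromosome 21, 27 of 663 tested genes were called (4.07%), 19 higher and 8 lower, against 294 of 17555 elsewhere (1.67%). The next highest share was 2.74%, on chromosome 7, and the lowest 0.866%, on chromosome 10. In wild type, 4 of the same 663 genes were called, out of 35 wild-type calls in all (0.192% of tested genes). The higher share on chromosome 21 was therefore not seen in the knockout alone, though the wild-type count is small. Of the 27, 20 lay among the last 332 tested genes in chromosomal order (6.02%) and 7 among the first 331 (2.11%). The chromosome 21 genes include dapl1, gpr143, cd302, asic4, gmppa, prkra, stxbp5l, pdk1 and gabpa among the risers and dnajc15 among the fallers.

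Most called genes of chromosome 21 had a small change in wild type. The wild-type change was under 0.2 in size for 21 of the 27 (77.8%), against 46.3% of the calls elsewhere. Of the 19 that rose, 14 had all 3 short-day knockout libraries below all 6 wild-type libraries (73.7%), against 82 of 183 risers elsewhere (44.8%). An example is prkra, for an activator of the double-stranded RNA sensor kinase PKR, at 31.5, 27.8 and 28.2 TPM under short days and 43.9, 45.7 and 44.2 TPM under long days in the knockout. In wild type it stood at 47.5, 43.3 and 42.6 TPM under short days and 49.9, 48.6 and 52.8 TPM under long days, so the short-day knockout libraries stood apart from the rest. The channel gene asic4 was the reverse case, with 26.1 to 29.8 TPM under short days and 26.7 to 33.2 TPM under long days in wild type, so that its long-day knockout libraries stood apart. These shares were looked at after the calls were seen and carry no test. They are set against other called genes only, and the shares over all tested genes were not computed. Genes called as risers were picked partly for low short-day knockout levels, which favours a place below wild type. The labels do not say whether the short-day and long-day knockout fish had the same parents. From the 6 knockout libraries, a response to day length and a difference in genetic background between the groups cannot be told apart. This holds for asic4, prkra, gpr143, cd302 and the other chromosome 21 genes, and for called genes elsewhere as well.

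**Figure D5:**
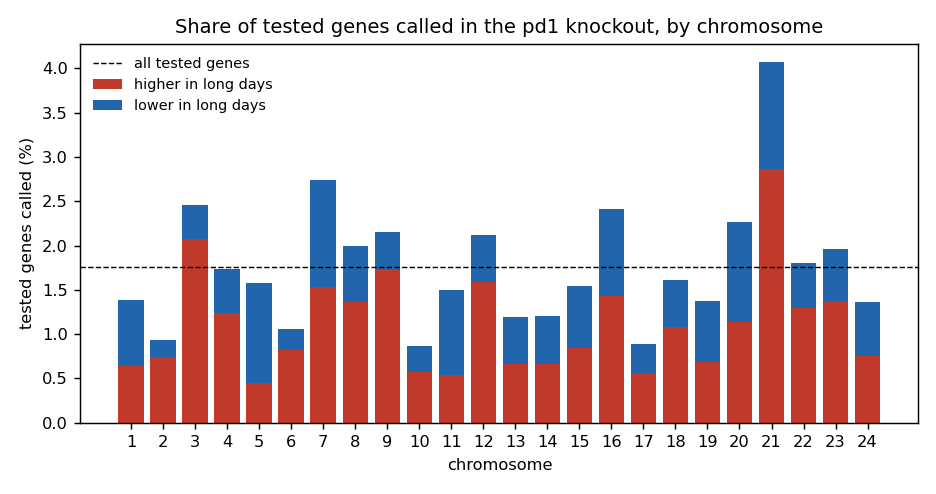
Percentage of tested genes called in the knockout on each of the 24 chromosomes, split into genes higher (red) and lower (blue) under long days, with the share over all tested genes, 1.76%, as a dashed line. Chromosome 21 stands at 4.07% and the others at 2.74% or less.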

How the data were processed

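Per the labels' protocols, strand-specific libraries were made from the polyadenylated RNA of 12 medaka brain samples and read from both ends. STAR 2.7.9a and RSEM 1.3.1 appear in the submitters' processing notes without their roles. The genome build and the annotation were not given in the sources used here. The authors deposited TPM per gene and library, kept to 2 decimals. The 4 groups of 3 libraries came from the labels. One limma fit (version 3.58.1, R 4.3.3) of 4 group means used log2(TPM + 1) with no other scaling and a prior variance that follows the mean level, over genes with at least 1 TPM in at least 3 libraries. The 3 contrasts were long minus short days in the knockout, the same in wild type, and their difference. Tests were two-sided with Benjamini-Hochberg adjustment within a contrast, and the fit was tested on simulated data. The pseudocount of 1 shrinks the changes of weakly expressed genes. Near-identical gene copies share reads, so their split is uncertain.

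Symbols, and chromosomes, came from the RefSeq table of ASM223467v1, which matched all 26663 gene IDs. Members and gene lists were chosen with earlier results of these data known: 51 lists were written from the labels and that knowledge, and 6 were added after the calls were seen. Named genes were the 15 largest rises and 15 largest falls with a symbol, no group overlap and at least 1 TPM in the higher group, called genes with a symbol that held under every alternative, up to 6 called members per list, a set of reproductive, thyroid and clock genes, and the 2 largest LOC genes per direction. Others are said to be named after their values were seen, and a few genes that the rule names are not reported here. Alternatives were a pseudocount of 0.1, filters of a TPM above 0 in any library or at least 5 TPM in at least 3, scaling by median ratios, leaving out the 20 genes of highest level, a prior variance with no trend, array weights, the 2 compared groups alone, a replicate block, and leaving out each knockout library or short-day wild-type library 3.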

Additional observations from a re-analysis of the deposited data

Results flagged for a closer look

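The gene LOC110015663 changed differently in the 2 genotypes by a test of the difference itself. Its knockout change exceeded its wild-type change by 3.29 on the log2(TPM + 1) scale (adjusted p = 0.0330 over all tested genes, limma). It was higher in 3 of 3 long-day knockout libraries, at 10.9 TPM or more, than in the 9 other libraries, which held 0.78 TPM or less. The gene was therefore tested only because of the long-day knockout libraries, the group in which it was high. The call of the difference was lost with the pseudocount of 0.1 and with the 5 TPM filter, as given below.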

How the results depend on the processing

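With a replicate block on the sample numbers 316 genes were called in the knockout. The knockout groups share no number, and same-numbered samples of the 2 genotypes correlated at -0.048 to 0.088 in their deviations, so the numbers were not used as pairs. The knockout count was 186 with no trend in the prior variance, 61 in the fit to the 2 compared groups alone, 81 to 216 without 1 knockout library and 212 without short-day wild-type library 3. The wild-type count moved from 35 to 292 with array weights and to 1 in the fit to the 2 compared groups alone. It ran from 23 to 37 without 1 of the knockout libraries or without short-day wild-type library 3. The other wild-type libraries were not left out, so this range does not show how the wild-type calls depend on them. The count for the difference of changes was 0 with a pseudocount of 0.1 and with the filter of at least 5 TPM. It was 6 with the filter of a TPM above 0, 5 with no trend and 9 with array weights. Without 1 of the knockout libraries or without short-day wild-type library 3 it was 2 to 6. For LOC110015663 that difference was 4.44 with the pseudocount of 0.1 (adjusted p = 0.128) and 3.29 with the filter of at least 5 TPM (adjusted p = 0.125), and it passed under the other alternatives run. The cause of these shifts was not tested. Of 94 called named genes 18 held under every alternative, 72 were lost with the 2 knockout groups fitted alone and none changed direction.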
